A study of Mus musculus with 22 samples.

Results

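The vomeronasal receptor genes of the mouse lie in tandem clusters, and the levels of 5-methylcytosine (5mC) and 5-hydroxymethylcytosine (5hmC) over these clusters were described in cortex, olfactory bulb and cerebellum. Members were the autosomal 100 kb bins that overlapped at least 1 gene whose GENCODE M21 symbol starts with Vmn1r or Vmn2r, which gave 281 of the 26327 bins in the 5mC tables. For 5hmC, which was deposited in 1 Mb bins, members were the 47 of 2641 bins with 3 or more such genes. The annotation held 565 receptor genes, of which 561 (326 Vmn1r and 235 Vmn2r) were autosomal and spread over 14 autosomes, and 329 of the 561 were protein-coding. The rule used gene symbols and no measured value.

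All tissues came from female C57BL/6 mice of 8 weeks, with no treatment or genetic change named in any group. 5mC was measured by oxidative bisulfite sequencing (oxBS-seq), which removes the 5hmC signal, in 3 cortex libraries and in 2 libraries each from olfactory bulb and cerebellum. 5hmC was measured by TET-assisted bisulfite sequencing (TAB-seq) in 3 libraries of each tissue. The cortex was the whole cerebral cortex without the hippocampus, the other tissues were taken whole, and replicates came from different mice, although the labels call them technical. The tissues are mixtures of cell types, so a level in a bin is an average over cells, and a change in the share of a cell type cannot be told apart from a change within cells. The 6 RNA-seq libraries of the series were not analysed here, so the tissue labels were not checked against marker expression. No sequencing batch was named, and the depth behind each value is unknown because the files give fractions without counts.

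Vomeronasal receptors are G protein-coupled receptors of the vomeronasal organ, the sensory epithelium through which rodents detect pheromones and other social cues. Vmn1r receptors are used by apical sensory neurons with the G protein subunit Gnai2, and Vmn2r receptors, which carry a large extracellular domain, by basal neurons with Gnao1. Each neuron expresses few of the genes, and the axons of these neurons end in the accessory olfactory bulb, while none of the tissues measured here contains the vomeronasal organ itself. 5hmC is made from 5mC by the TET enzymes and is abundant in neurons, above all over transcribed genes.

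Windows at the start of 5 receptor genes in bins discussed below are shown because they illustrate how few CpG sites such windows hold and how alike neighbouring copies can be. Each line gives the 250 bases before and 50 bases after the gene start from RefSeq on GRCm38.p6 (the mm10 assembly), 5′ to 3′ on the gene's strand, with CpG sites in capitals. These windows are called promoters below, but the gene starts were not checked as transcription starts. In Vmn1r107, Vmn1r142 and Vmn2r85 the last 50 bases begin with atg, so the annotated start may be the coding start.
Vmn1r107: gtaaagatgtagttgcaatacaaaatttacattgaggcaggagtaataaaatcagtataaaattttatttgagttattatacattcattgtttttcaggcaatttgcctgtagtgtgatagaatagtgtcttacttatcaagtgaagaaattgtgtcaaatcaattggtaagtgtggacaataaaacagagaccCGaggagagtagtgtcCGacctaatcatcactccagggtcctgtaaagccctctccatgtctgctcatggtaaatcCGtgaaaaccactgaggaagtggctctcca
Vmn1r142: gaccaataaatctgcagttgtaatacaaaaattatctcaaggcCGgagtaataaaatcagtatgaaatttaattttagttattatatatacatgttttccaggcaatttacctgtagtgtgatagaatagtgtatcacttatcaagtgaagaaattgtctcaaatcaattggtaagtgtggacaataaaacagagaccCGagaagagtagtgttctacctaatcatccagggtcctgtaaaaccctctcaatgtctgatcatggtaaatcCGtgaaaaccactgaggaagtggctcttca
Vmn1r201: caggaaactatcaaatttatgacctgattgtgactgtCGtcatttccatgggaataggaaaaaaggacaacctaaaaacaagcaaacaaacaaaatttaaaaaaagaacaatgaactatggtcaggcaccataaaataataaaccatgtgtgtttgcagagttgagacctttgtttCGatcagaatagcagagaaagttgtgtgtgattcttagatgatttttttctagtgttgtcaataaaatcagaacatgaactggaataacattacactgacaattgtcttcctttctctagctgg
Vmn2r2: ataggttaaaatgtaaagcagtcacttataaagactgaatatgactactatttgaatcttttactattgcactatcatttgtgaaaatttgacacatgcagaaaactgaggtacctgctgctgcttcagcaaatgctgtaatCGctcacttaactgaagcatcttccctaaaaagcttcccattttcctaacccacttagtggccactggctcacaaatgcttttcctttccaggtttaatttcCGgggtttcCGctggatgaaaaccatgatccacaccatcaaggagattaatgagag
Vmn2r85: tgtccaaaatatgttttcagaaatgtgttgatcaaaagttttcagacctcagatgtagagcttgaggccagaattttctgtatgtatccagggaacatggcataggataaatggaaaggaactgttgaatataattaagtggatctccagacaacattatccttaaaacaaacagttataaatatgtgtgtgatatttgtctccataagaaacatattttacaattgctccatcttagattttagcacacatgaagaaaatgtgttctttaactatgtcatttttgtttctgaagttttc

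Vmn1r107 (chr7:20668668-20668967, plus strand) and Vmn1r142 (chr7:22163986-22164285, minus strand) belong to the largest Vmn1r cluster and hold 3 CpG sites each. The Vmn1r107 window was identical to that of Vmn1r155, and the Vmn1r142 window to that of Vmn1r94. Vmn1r201 (chr13:22474368-22474667, plus strand) holds 2 CpG sites, and its closest receptor promoter, that of Vmn1r194, shared 45.7% of bases without gaps. Vmn2r2 (chr3:64137431-64137730, minus strand) holds 3 CpG sites and Vmn2r85 (chr10:130429563-130429862, minus strand) holds 0. RefSeq promoters were found for 206 Vmn1r and 117 Vmn2r genes. The median promoter of either family held 1 CpG site, against 7 over all 32851 promoters of the table, and 21.4% of Vmn1r and 28.8% of Vmn2r promoters held none, against 5.43% of all promoters. Where an annotated gene start is a coding start, this comparison is not a like one.

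Receptor bins held fewer CpG sites and more repeats than the median bin. Their median GC content was 39.3%, against 41.2% over all bins, and they held a median of 598 CpG sites per 100 kb, against 751 over all bins and 786.5 in the 500 kb on either side of the clusters. Repeats masked in the genome sequence covered a median of 52.3% of a receptor bin, 32.3% of all bins and 36.6% of the flanking bins. The share was 56.0% for bins with Vmn1r genes only and 51.2% for bins with Vmn2r genes only.

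The mean 5mC level of the receptor bins was lowest in cerebellum, where that of all bins was highest. Of the 281 bins, 280 had a value strictly between 0 and 1 in all 7 libraries and were tested. The remaining bin (chr7:21500001-21600000, with Vmn1r130 and Vmn1r131) was listed at 1 in a cerebellum library. Averaged over the 280 bins, the 5mC level was 0.741, 0.739 and 0.714 in the cortex libraries, 0.750 and 0.753 in olfactory bulb, and 0.723 and 0.708 in cerebellum. The tissue means were 0.731 ± 0.0149 for cortex (SD, n = 3), 0.751 ± 0.00219 for olfactory bulb (SD, n = 2) and 0.715 ± 0.0103 for cerebellum (SD, n = 2). The olfactory bulb libraries lay above all others, an order against cortex that turned once libraries were centred, and the cerebellum libraries overlapped those of cortex, of which replicate 3 was lower than its replicates here and over all bins. The mean over all bins went the other way between cerebellum and cortex, with 0.677 ± 0.0147, 0.707 ± 0.00286 and 0.731 ± 0.0114 in cortex, olfactory bulb and cerebellum.

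Both families had the same order of tissues. Bins with Vmn1r genes only (114 tested) had mean levels of 0.733 ± 0.0139, 0.754 ± 0.000835 and 0.718 ± 0.00921 in cortex, olfactory bulb and cerebellum. Bins with Vmn2r genes only (162 tested) had 0.731 ± 0.0157, 0.750 ± 0.00333 and 0.715 ± 0.0112. The 4 bins with genes of both families had 0.703, 0.719 and 0.671. The Vmn2r mean minus the Vmn1r mean was -0.00119 ± 0.00229, -0.00430 ± 0.00250 and -0.00381 ± 0.00194 in cortex, olfactory bulb and cerebellum (SD over libraries), values near the spread between libraries, whose sign turned when only protein-coding genes or only bins with 3 or more genes were used.

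The cerebellum minus cortex difference of the member mean was -0.0160, while it was 0.0291 in the flanking bins, 0.0208 in the 364 bins with odorant receptor (Olfr) genes, 0.0574 in the 3623 bins without any gene and 0.0544 over all bins. The cerebellum minus olfactory bulb difference was -0.0358 in members, against 0.00102 in the flanks, -0.00828 in Olfr bins and 0.0242 over all bins. The olfactory bulb minus cortex difference of 0.0198 was the smallest of these sets, with 0.0281 in the flanks and 0.0301 over all bins, and turned to -0.0103 once each library was centred on its own mean. Olfr genes, which encode the receptors of the main olfactory epithelium, also lie in tandem clusters, and their bins had levels of 0.728, 0.757 and 0.749.

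**Figure D1:**
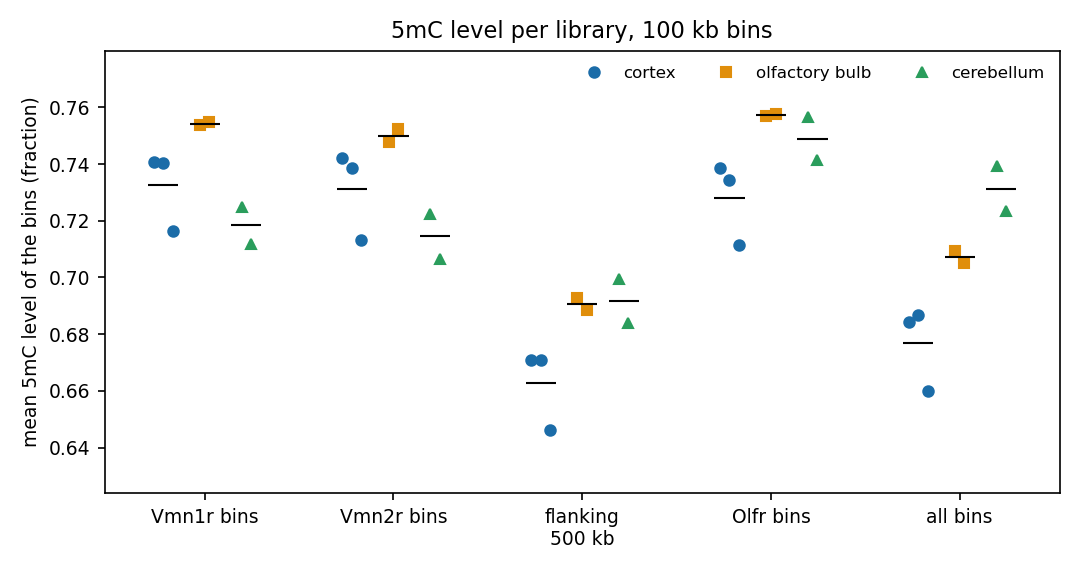
Mean 5mC level of each oxBS-seq library (fraction, y axis, not starting at 0) for bins with Vmn1r genes only, bins with Vmn2r genes only, flanking bins, Olfr bins and all bins (x axis). Points are libraries by tissue and lines the tissue means, and cerebellum was lowest in the receptor bins (0.718 and 0.715) and highest over all bins (0.731).

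Each bin was tested with limma on the log2 ratio of methylated to unmethylated fraction, log2(level/(1 - level)), in 1 fit over the 3 tissues, with p-values adjusted by Benjamini-Hochberg over all 25664 bins and a threshold of 0.05. In cerebellum against cortex, 114 of the 280 receptor bins were lower and 37 higher, while 4.44% of all bins were lower and 71.9% higher. The median change of the log2 ratio was -0.18 in receptor bins and 0.43 over all bins. In cerebellum against olfactory bulb, 147 receptor bins were lower and 4 higher (7.69% and 35.3% of all bins), with a median change of -0.32 against 0.19. In olfactory bulb against cortex, 46 receptor bins were higher and 2 lower (37.6% and 2.18% of all bins), with a median of 0.14 against 0.22. The 3 comparisons share libraries and are not independent of each other.

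Relative to the median of each library, more receptor bins were lower in cerebellum. When each library was centred on its own median, 234 receptor bins were lower in cerebellum than in cortex and 1 was higher, while all bins split into 24.3% lower and 25.7% higher. In cerebellum against olfactory bulb the centred fit gave 218 lower and 1 higher, with 21.3% and 22.1% of all bins. In olfactory bulb against cortex it gave 15 lower and 6 higher (5.36% and 2.14%), smaller shares than the 9.9% and 8.81% of all bins. The median centred change there was -0.087 in receptor bins and -0.0050 over all bins. The centred fit also called 177 of 362 flanking bins and 214 of 364 Olfr bins lower in cerebellum than in cortex, so a low cerebellum level relative to the genome was shared by the surroundings and by the Olfr clusters, though over smaller shares of their bins. By family, the fit without centring called 50 of 114 Vmn1r bins and 61 of 162 Vmn2r bins lower in cerebellum than in cortex, with 19 and 17 higher, and 57 and 87 lower in cerebellum than in olfactory bulb. The counts rest on few libraries. Without cerebellum replicate 2 the share of receptor bins lower than in cortex was 15.7% instead of 40.7%, without cortex replicate 1 it was 21.8%, and without replicate 1 or 2 of olfactory bulb the share of bins lower in cerebellum than in olfactory bulb was 31.8% and 23.2% instead of 52.5%. Without cerebellum replicate 2 the latter was 21.4%. The share of bins higher in olfactory bulb than in cortex was 9.64% without cortex replicate 3, and 4.64% and 4.29% without olfactory bulb replicates 1 and 2, instead of 16.4%.

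The decrease in cerebellum was unevenly placed. Chromosome 7 held 73 of the 114 bins that were lower than in cortex, of its 124 receptor bins, and chromosome 17 held 28, of its 44. On chromosome 6, with 36 bins, 1 was lower and 14 were higher, and on chromosome 13, with 27 bins, 6 were lower and 2 higher. Without the bins of chromosomes 7 and 17, a choice made after the values were seen, 11.6% of receptor bins were lower in cerebellum than in cortex. Of these 112 bins 13 were lower and 31 higher, where 4.44% of all bins were lower and 71.9% higher. More of these bins were thus higher than lower, but the share higher was still smaller, and the share lower larger, than over all bins. The number of receptor genes in a bin gave no order, since the cerebellum minus cortex difference was -0.0134 in bins with 1 gene (n = 114), -0.0244 with 2 or 3 (n = 121) and 0.000115 with 4 to 9 (n = 45).

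Member bins separated by at most 500 kb were joined into 40 clusters, 15 of which held 10 or more receptor genes and together 500 of the 561 genes. In 7 of these 15 both cerebellum libraries lay below all 3 cortex libraries, in 3 above, and in 5 the libraries overlapped. Of all 25664 single bins, 1442 lay below and 19571 above in this way. Against olfactory bulb, cerebellum was lower without overlap in 11 and higher in 1, beside 4147 lower and 15039 higher of all 25664 single bins.

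The 7 clusters with lower levels in cerebellum lay on chromosomes 7, 13 and 17 and held both families. The largest, chr7:20000001-24100000 from Vmn1r91 to Vmn1r183, holds 78 Vmn1r genes. Its mean over 33 tested bins was 0.745, 0.749 and 0.723 in cortex, 0.751 and 0.755 in olfactory bulb, and 0.697 and 0.694 in cerebellum. Both cerebellum libraries thus lay below every other library, and 22 of its bins were lower in cerebellum than in cortex and 2 higher. The cluster of 60 genes of both families at chr17:17700001-21400000, Vmn2r90 to Vmn1r-ps150, had 0.740, 0.738 and 0.711 in cortex, 0.745 and 0.748 in olfactory bulb, and 0.698 and 0.680 in cerebellum. Of its 33 bins 26 were lower in cerebellum than in cortex and 1 higher. The mixed cluster at chr7:7100001-10800000, with 39 Vmn2r and 12 Vmn1r genes from Vmn2r-ps35 to Vmn1r71, had 0.708, 0.698 and 0.689 in cortex, 0.700 and 0.712 in olfactory bulb, and 0.663 and 0.645 in cerebellum. It was the lowest of the 15 in every tissue, with 22 of 31 bins lower in cerebellum than in cortex.

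The other 4 clusters of this kind also had their lowest levels in cerebellum. At chr7:5100001-6100000 (15 genes, Vmn1r55 to Vmn1r65), levels were 0.742, 0.739 and 0.712 in cortex, 0.743 and 0.751 in olfactory bulb, and 0.703 and 0.690 in cerebellum, with 6 of 8 bins lower. At chr7:11600001-13300000 (39 genes, Vmn1r-ps53 to Vmn1r-ps69), they were 0.727, 0.729 and 0.710, then 0.737 and 0.728, then 0.696 and 0.682 in the same order of tissues, with 9 of 15 bins lower and 1 higher. Cerebellum was again below both other tissues in each library. At chr7:41300001-43000000 (14 genes, Vmn2r57 to Vmn2r63), they were 0.751, 0.735 and 0.731, then 0.752 and 0.757, then 0.714 and 0.703, with 9 of 14 bins lower. At chr13:65300001-66900000, where none of the 11 Vmn2r entries from Vmn2r-ps95 to Vmn2r-ps109 is protein-coding, they were 0.720, 0.720 and 0.684, then 0.716 and 0.723, then 0.678 and 0.666, with 6 of 12 bins lower. In this cluster cortex replicate 3 lay close above the cerebellum libraries.

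In 3 clusters the level was higher in cerebellum than in cortex, as it was over the genome. The Vmn2r cluster at chr3:64000001-64900000, 18 genes from Vmn2r-ps3 to Vmn2r-ps13, had 0.773, 0.776 and 0.744 in cortex, 0.791 and 0.785 in olfactory bulb, and 0.818 and 0.804 in cerebellum. All 9 of its bins were higher in cerebellum than in cortex, and it was the only cluster of the 15 in which cerebellum also lay above olfactory bulb in every library. The Vmn1r cluster at chr6:56900001-58600000, 44 genes from Vmn1r4 to Vmn1r-ps23, had 0.759, 0.748 and 0.739, then 0.779 and 0.785, then 0.790 and 0.775, with 8 of 14 bins higher and 0 lower. The Vmn1r cluster at chr6:89600001-90300000, 23 genes from Vmn1r-ps25 to Vmn1r54, had 0.742, 0.749 and 0.720, then 0.757 and 0.761, then 0.768 and 0.750, with 1 of 7 bins higher. Both families were thus found on either side.

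In the remaining 5 large clusters cerebellum and cortex overlapped. The gene-dense Vmn1r cluster at chr13:22000001-23300000, with 70 genes in 13 bins from Vmn1r-ps92 to Vmn1r-ps135, had 0.732, 0.729 and 0.706 in cortex, 0.761 and 0.764 in olfactory bulb, and 0.748 and 0.732 in cerebellum. Here olfactory bulb was highest, and 8 of 13 bins were higher in it than in cortex. The Vmn2r cluster at chr5:108700001-109600000 (12 genes, Vmn2r8 to Vmn2r-ps23) had 0.728, 0.720 and 0.698, then 0.739 and 0.739, then 0.710 and 0.694, with 0 of 9 bins called in cerebellum against cortex. The Vmn2r cluster at chr6:123300001-124300000 (13 genes, Vmn2r19 to Vmn2r27) had 0.765, 0.794 and 0.721, then 0.784 and 0.796, then 0.798 and 0.769, the widest spread between cortex libraries of the 15. The Vmn2r cluster at chr7:84800001-87100000 (38 genes, Vmn2r-ps62 to Vmn2r79) had 0.769, 0.755 and 0.743, then 0.778 and 0.781, then 0.744 and 0.731, with 3 of 19 bins lower. The Vmn2r cluster at chr17:22500001-23500000 (14 genes, Vmn2r111 to Vmn2r117) had 0.750, 0.742 and 0.720, then 0.764 and 0.758, then 0.732 and 0.712, with 2 of 8 bins lower. In all of these but the chromosome 6 cluster, olfactory bulb lay above cerebellum in every library. The 25 smaller clusters, with 61 genes in 46 bins, had cortex levels from 0.634 to 0.790 and cerebellum minus cortex differences from -0.0523 to 0.0784. Cerebellum lay below all cortex libraries in 3 of them and above in 9, with overlap in 13. Of their bins 9 were called lower and 11 higher, beside 4.44% and 71.9% of all bins. Over all 40 clusters cerebellum lay below all cortex libraries in 10 and above in 12, with overlap in 18. Among all 25664 single bins it lay below in 1442 and above in 19571.

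**Figure D2:**
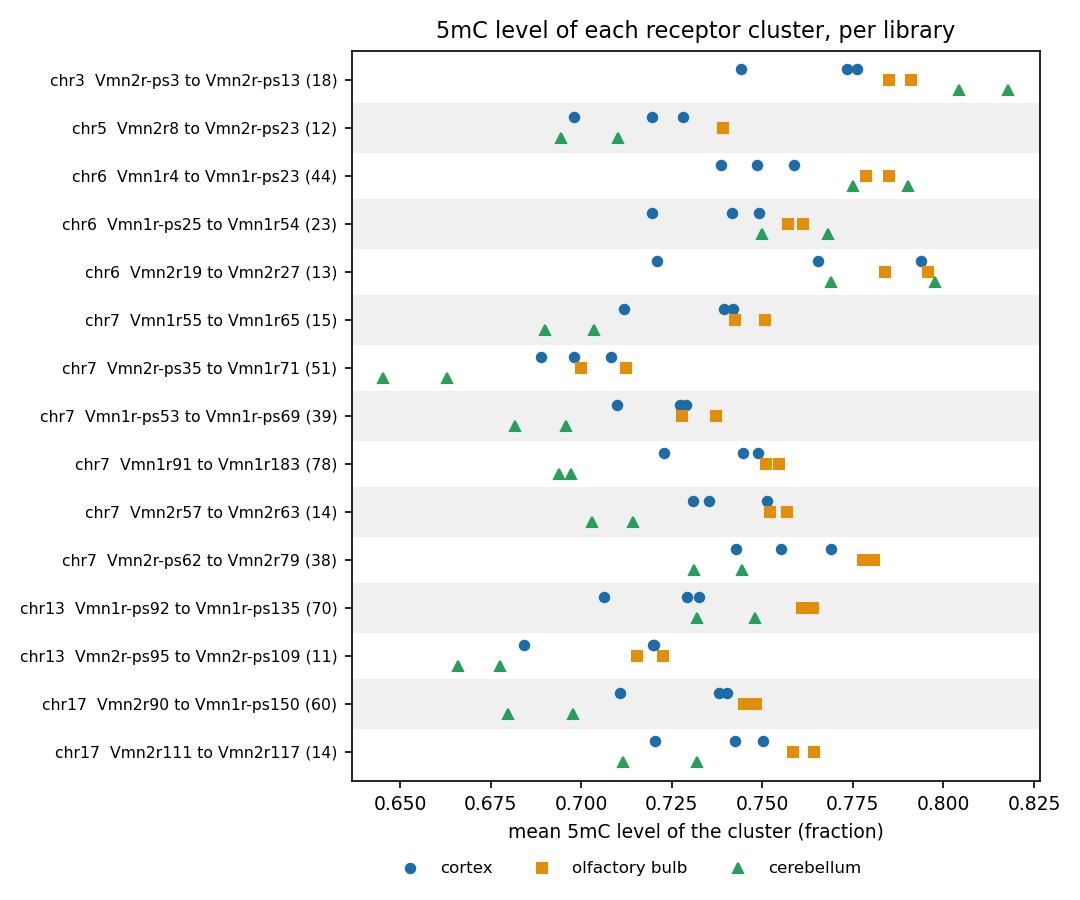
Mean 5mC level (fraction, x axis) of the 15 clusters with 10 or more receptor genes (y axis, with the number of genes in parentheses), with 1 point per library by tissue. Both cerebellum libraries lie left of all cortex libraries in 7 clusters and right of them in 3.

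The pattern was also set against the flanks of the clusters. Receptor bins were compared with the 5 bins on either side of their cluster, by limma on the difference of log2 ratios, fitted over 25659 bins that were each set against their own surroundings. Every other bin, Olfr bins included, was set against the 5 bins on either side of itself, which in tandem clusters can hold related genes. The shares of all bins given here are therefore not a fully like measure. In cortex 203 of 280 receptor bins were above and 48 below their flank (39.8% and 31.1% of all bins), with a median difference of 0.47. In olfactory bulb 196 were above and 46 below (37.1% and 28.7%), with a median of 0.47. In cerebellum 131 were above and 90 below (36.9% and 27.4%), with a median of 0.11. In cerebellum the share above the flank was thus closer to that of all bins.

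The difference of these differences was tested as well. Relative to the flank, 142 receptor bins were lower in cerebellum than in cortex and 6 higher, against 12.7% and 13.7% of all bins. Relative to the flank, 137 were lower in cerebellum than in olfactory bulb and 9 higher, against 12.4% and 13.1%. Between olfactory bulb and cortex, 7 were lower and 6 higher, against 5.14% and 5.03%, with a median of -0.02. Of the 142 bins, 54 held Vmn1r genes only and 85 Vmn2r genes only. Olfr bins, set against their own neighbours and not against the outside of a cluster, gave 39 lower and 22 higher in cerebellum against cortex. Their counts are thus not directly comparable with those of the receptor bins. Without cerebellum replicate 2, the share of lower receptor bins was 33.2% instead of 50.7% against cortex and 30.7% instead of 48.9% against olfactory bulb.

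Vmn1r bins stood farther above their flanks than Vmn2r bins in each tissue, a difference described without a test. It lay mainly in the flanks, since the Vmn2r minus Vmn1r levels were only -0.00119, -0.00430 and -0.00381. All bins of a cluster share the same flank, which in cortex was 0.592 for the 33 bins at chr7:20000001-24100000 and 0.464 for the 13 at chr13:22000001-23300000. An SD over libraries does not cover the spread between clusters. The level of Vmn1r bins minus that of their flanks was 0.100 ± 0.00144, 0.0985 ± 0.00363 and 0.0620 ± 0.00132 in cortex, olfactory bulb and cerebellum. For Vmn2r bins it was 0.0474 ± 0.00259, 0.0416 ± 0.00508 and 0.00416 ± 0.00177. In cerebellum Vmn2r bins were nearly level with their surroundings, and 66 of them were below the flank and 58 above, while 72 Vmn1r bins were above and 22 below.

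Single clusters spanned a wide range. At chr13:22000001-23300000 the flanks had only 0.464, 0.484 and 0.509 in cortex, olfactory bulb and cerebellum, and the cluster exceeded them by 0.259, 0.279 and 0.231. At chr7:20000001-24100000 the excess was 0.147 in cortex and 0.141 in olfactory bulb and 0.0860 in cerebellum, with a cerebellum minus cortex difference of 0.0176 in the flank and -0.0432 in the cluster. At chr17:17700001-21400000 the cluster was above its flank by 0.0622 in cortex and 0.0689 in olfactory bulb and differed by -0.0195 in cerebellum. The clusters at chr7:7100001-10800000 and chr7:11600001-13300000 were below their flanks in all 7 libraries. Of all 40 clusters, 26 were above and 4 below in every library. At chr7:11600001-13300000 the cerebellum minus cortex difference was -0.0356 in the flank and -0.0334 in the cluster, so the surroundings shared the fall. Flanks also fell, by less than the cluster, at chr7:7100001-10800000 (-0.0106) and chr7:41300001-43000000 (-0.00977). They rose at chr7:5100001-6100000 (0.0290), chr13:65300001-66900000 (0.0318) and chr17:17700001-21400000 (0.0409).

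The step at the cluster edge was steep. Mean 5mC in cortex went from 0.653 in the first bin outside to 0.711 in the first bin inside, each over 30 bins, and to 0.743 in the second bin inside, over 28 bins. In olfactory bulb it went from 0.676 to 0.732 and 0.762, and in cerebellum from 0.681 to 0.715 and 0.736. Outside the edge cortex was the lowest tissue, and in the second bin inside cerebellum was, though within the spread between libraries.

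**Figure D3:**
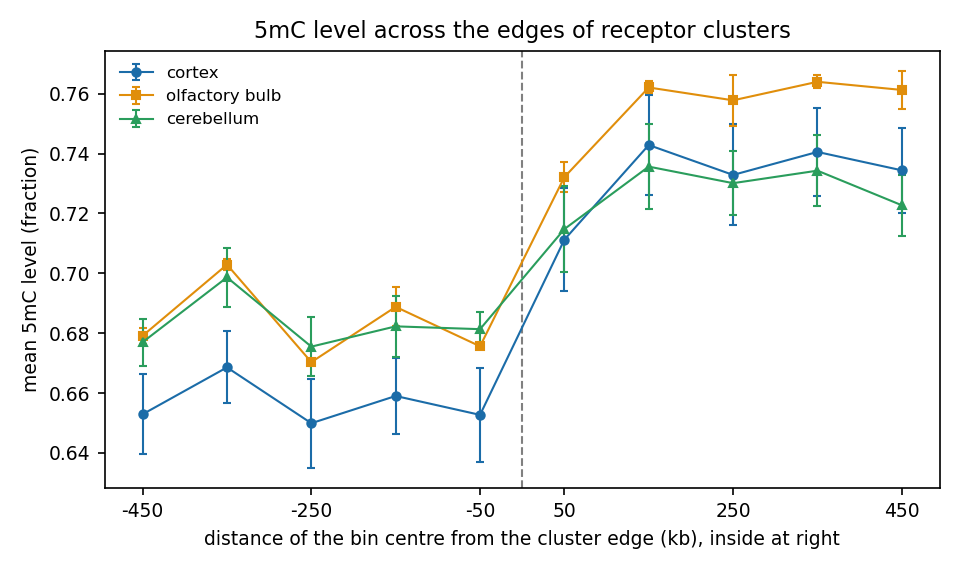
Mean 5mC level (fraction, y axis) against the distance of the bin centre from the edge of the 15 largest clusters (kb, x axis, inside to the right, dashed line at the edge), by tissue, with error bars for the SD over libraries. The first bin outside had 0.653 in cortex and 0.681 in cerebellum, and the second bin inside had 0.743 and 0.736.

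Some bins carried the largest changes. The bin with Vmn2r46 (chr7:9700001-9800000) had 0.832, 0.867 and 0.932 in cortex, 0.817 and 0.833 in olfactory bulb, and 0.786 and 0.772 in cerebellum. It gave the largest fall from cortex to cerebellum (log2 ratio -1.11, SE 0.12, limma adjusted p 2.54e-17), and its adjusted p was 0.107 under the robust fit with a trend. The bin with Vmn1r107 and Vmn1r-ps71 (chr7:20600001-20700000) had 0.738, 0.796 and 0.759 in cortex, 0.728 and 0.712 in olfactory bulb, and 0.633 and 0.574 in cerebellum. Its change to cerebellum was -1.10 from cortex (limma adjusted p 5.03e-18) and -0.75 from olfactory bulb (limma adjusted p 1.33e-07), and the tissues did not overlap. Its fall from cortex to olfactory bulb (-0.34, limma adjusted p 0.0142) was lost without cortex replicate 2 (adjusted p 0.167), olfactory bulb replicate 1 (0.0741) or olfactory bulb replicate 2 (0.193). The bin with Vmn1r135 (chr7:21800001-21900000) had 0.765, 0.852 and 0.790 in cortex, 0.835 and 0.738 in olfactory bulb, and 0.667 and 0.763 in cerebellum, a wide spread within each tissue. Its fall of -0.70 from cortex to cerebellum (limma adjusted p 4.5e-08) had an adjusted p of 0.0802 without cerebellum replicate 1 and of 0.223 under the robust fit with a trend. The fit gave nearly all bins the same error, so bins whose libraries differ widely received p-values that do not reflect their own spread. Some levels of these bins equal ratios of small whole numbers, such as 0.764706 for Vmn1r135 in cortex replicate 1 and 0.833333 for Vmn2r46 in olfactory bulb replicate 2. Few counts may lie behind such values, which was not tested.

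The bin with Vmn1r142 and Vmn1r143 (chr7:22100001-22200000) was high in olfactory bulb, with 0.801 and 0.812, against 0.741, 0.754 and 0.676 in cortex and 0.680 and 0.716 in cerebellum. It gave the largest rise from cortex to olfactory bulb (0.66, limma adjusted p 1.39e-06) and the largest fall from olfactory bulb to cerebellum (-0.85, limma adjusted p 2.49e-09). The bin with Vmn1r200 to Vmn1r202 (chr13:22400001-22500000, 8 genes) had 0.813 and 0.833 in olfactory bulb, 0.762, 0.773 and 0.729 in cortex, and 0.772 and 0.757 in cerebellum. It was higher in olfactory bulb than in cortex by 0.60 (limma adjusted p 1.31e-05). The bin with Vmn1r-ps79 (chr7:20300001-20400000) had 0.803 and 0.851 in olfactory bulb and 0.760 and 0.744 in cerebellum, a fall of -0.67, with an adjusted p of 0.0545 without olfactory bulb replicate 2.

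Among bins whose libraries did not overlap, the largest rises from cortex to cerebellum lay outside the low clusters. The bin with Vmn2r118 (chr17:55500001-55600000), which also overlaps the sialyltransferase gene St6gal2, had 0.718, 0.700 and 0.684 in cortex, 0.782 and 0.779 in olfactory bulb, and 0.791 and 0.777 in cerebellum. Cortex was the low tissue there, with rises of 0.63 to cerebellum (limma adjusted p 4.06e-07) and 0.60 to olfactory bulb (limma adjusted p 1.03e-05). The bin with Vmn2r85, Vmn2r86 and Vmn2r87 (chr10:130400001-130500000) had 0.757, 0.712 and 0.729 in cortex, 0.762 and 0.811 in olfactory bulb, and 0.800 and 0.810 in cerebellum (0.59 from cortex to cerebellum, limma adjusted p 2.54e-06). The bin with Vmn2r7 (chr3:64800001-64900000) had 0.765, 0.754 and 0.734, then 0.777 and 0.774, then 0.820 and 0.816 in the same order of tissues (0.57, limma adjusted p 4.22e-06). Once libraries were centred, the bins of Vmn2r85 and Vmn2r7 no longer passed (limma adjusted p 0.253 and 0.0752).

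The fit called 4 bins higher in cerebellum than in olfactory bulb. In 1 of them, with Vmn1r132 (chr7:21600001-21700000), the libraries overlapped, at 0.885 and 0.829 in olfactory bulb and 0.824 and 0.976 in cerebellum. The other 3 did not pass the threshold without some single libraries. The bin with Vmn1r-ps1 (chr2:174500001-174600000) had 0.728 and 0.727 in olfactory bulb and 0.795 and 0.768 in cerebellum (0.43, limma adjusted p 0.00396), with an adjusted p of 0.150 without cerebellum replicate 1 and 0.0561 without olfactory bulb replicate 2. The bin of Vmn2r7 rose by 0.38 (limma adjusted p 0.0110), with an adjusted p of 0.0743 and 0.101 without olfactory bulb replicates 1 and 2 and 0.0884 without cerebellum replicate 1. The bin with Vmn2r1 and Vmn2r2 (chr3:64100001-64200000) had 0.770 and 0.753 in olfactory bulb and 0.804 and 0.792 in cerebellum (0.31, limma adjusted p 0.0421). Its adjusted p ran from 0.0629 to 0.307 without cortex replicate 1, either olfactory bulb library or either cerebellum library.

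The levels of the members ranged from 0.369 to 0.876 with a median of 0.741 (mean of the tissue means). The lowest bin, chr13:22000001-22100000, holds Vmn1r188 and Vmn1r189 beside the protease gene Prss16 and 5 histone genes, and had 0.347, 0.365 and 0.396 in cortex, olfactory bulb and cerebellum. The next, chr7:13000001-13100000, holds Vmn1r85 and Vmn1r86 beside Trim28, which encodes a co-repressor of zinc finger proteins, and had 0.444, 0.452 and 0.441. Both share the bin with genes of other families. The third, chr4:146200001-146300000 with Vmn2r-ps17, had 0.585, 0.607 and 0.541. The highest were chr7:21600001-21700000 with Vmn1r132 (0.871, 0.857 and 0.900, where the cerebellum libraries were at 0.824 and 0.976), chr17:55600001-55700000 with Vmn2r118 (0.816, 0.848 and 0.859) and the Vmn2r46 bin.

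5hmC was low over the receptor genes in all 3 tissues. The mean over the 47 member bins of 1 Mb was 0.0757, 0.0829 and 0.0748 in the cortex libraries, 0.0577, 0.0634 and 0.0589 in olfactory bulb, and 0.0437, 0.0446 and 0.0456 in cerebellum. The tissues did not overlap, with means of 0.0778 ± 0.00443, 0.0600 ± 0.00302 and 0.0446 ± 0.000918 (SD, n = 3 each), against 0.163 ± 0.00946, 0.145 ± 0.00430 and 0.0949 ± 0.00176 over all bins. The adjacent 33 bins had 0.154, 0.130 and 0.0940, and 66 bins with Olfr genes had 0.127, 0.0999 and 0.0717. As a share of the sum of 5mC and 5hmC, 5hmC made up 9.87%, 7.57% and 5.91% over members in cortex, olfactory bulb and cerebellum, against 19.4% in cortex and 11.5% in cerebellum over all bins. The sum itself was 0.788, 0.793 and 0.755 in members and 0.840, 0.852 and 0.826 over all bins.

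In limma over all 2581 tested 1 Mb bins, all 47 receptor bins had less 5hmC in cerebellum than in cortex, where 97.6% of all bins were lower, while after centring each library 30 receptor bins were higher and 11 lower (50.3% and 40.1% of all bins). The median change without centring was -0.78 in receptor bins and -0.97 over all bins. In olfactory bulb against cortex 45 were lower and 0 higher (67.7% and 3.25%), with a median of -0.42 against -0.24, and centred 25 were lower and 2 higher (33.0% and 36.2%). In cerebellum against olfactory bulb 34 were lower and 1 higher (91.8% and 1.2%), with a median of -0.35 against -0.72, and centred 6 were lower and 37 higher (39.1% and 50.9%). The decrease from cortex to cerebellum was thus shared with the genome, with a smaller median than over all bins. Without centring, the fit gave every 1 Mb bin the same error (SE 0.0732), so its p-values do not reflect the spread of a single bin. The 1 bin that was higher in cerebellum than in olfactory bulb, with Vmn1r91 to Vmn1r118 (chr7:20000001-21000000), had levels of 0.0150 and 0.0137 (0.15, limma adjusted p 0.0427). Without cortex replicate 1 or 2, olfactory bulb replicate 1 or 3, or cerebellum replicate 2 or 3, 0 receptor bins were higher, while 5 were higher without olfactory bulb replicate 2 and 3 without cerebellum replicate 1.

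Vmn1r bins (19) had more 5hmC than Vmn2r bins (24) in every tissue, with 0.0867 and 0.0764 in cortex, 0.0679 and 0.0580 in olfactory bulb, and 0.0503 and 0.0424 in cerebellum. The difference was -0.0103 ± 0.000872, -0.00996 ± 0.000640 and -0.00790 ± 0.000809 (Vmn2r minus Vmn1r, SD over libraries), small beside the range within a family. The 4 bins with 3 or more genes and both families had 0.0438, 0.0349 and 0.0309.

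The 47 bins ranged from 0.0168 to 0.183 in cortex. In the cluster of Vmn1r91 to Vmn1r183, the 4 bins from chr7:20000001-21000000 to chr7:23000001-24000000 had 0.0168 to 0.0196 in cortex, 0.0129 to 0.0137 in olfactory bulb and 0.0140 to 0.0150 in cerebellum. The bin chr7:22000001-23000000, with Vmn1r-ps78 to Vmn1r160, was the lowest of all 2581 bins in cortex, with 0.0154, 0.0160 and 0.0190 in its libraries. On chromosome 7 from 8000001 to 12000000, where Vmn2r41 to Vmn1r-ps59 lie, the 4 bins had 0.0174, 0.0185, 0.0251 and 0.0181 in cortex and 0.0139 to 0.0159 in cerebellum. On chromosome 17 the bins from 18000001 and 19000001, with Vmn2r124 to Vmn2r-ps125, had 0.0200 and 0.0199 in cortex and 0.0145 and 0.0140 in cerebellum, and the next bin, with Vmn2r104 to Vmn1r233, 0.0318 and 0.0206. The bin chr7:85000001-86000000, with 24 Vmn2r genes, had 0.0298, 0.0173 and 0.0147 in cortex, olfactory bulb and cerebellum. TAB-seq reads 5mC that escaped conversion as 5hmC, and no conversion rate was analysed here, so levels near 0.015 cannot be told apart from a background of that size.

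The clusters whose 5mC was higher in cerebellum had more 5hmC than the low ones. The Vmn1r bins on chromosome 6 had 0.123 (57000001 to 58000000), 0.132 (58000001 to 59000000), 0.155 (89000001 to 90000000) and 0.169 (90000001 to 91000000) in cortex, and 0.0568, 0.0736, 0.111 and 0.125 in cerebellum. The Vmn2r bin on chromosome 3 (64000001 to 65000000) had 0.113, 0.0972 and 0.0513 in cortex, olfactory bulb and cerebellum. The chromosome 13 bin with 50 Vmn1r genes (22000001 to 23000000) had 0.0805, 0.0401 and 0.0257, and its neighbour with 20 (23000001 to 24000000) 0.103, 0.0829 and 0.0463. On chromosome 7 the bins with Vmn1r55 to Vmn1r-ps46 (5000001 to 6000000), Vmn2r-ps35 to Vmn2r36 (7000001 to 8000000), Vmn1r-ps60 to Vmn2r56 (12000001 to 13000000) and Vmn2r-ps81 to Vmn2r79 (86000001 to 87000000) had 0.0523, 0.0519, 0.0661 and 0.0738 in cortex. The bin with Vmn2r-ps129 to Vmn2r117 on chromosome 17 had 0.0965. The other 23 member bins, with fewer than 10 genes, lay within the range of 0.0168 to 0.183.

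**Figure D4:**
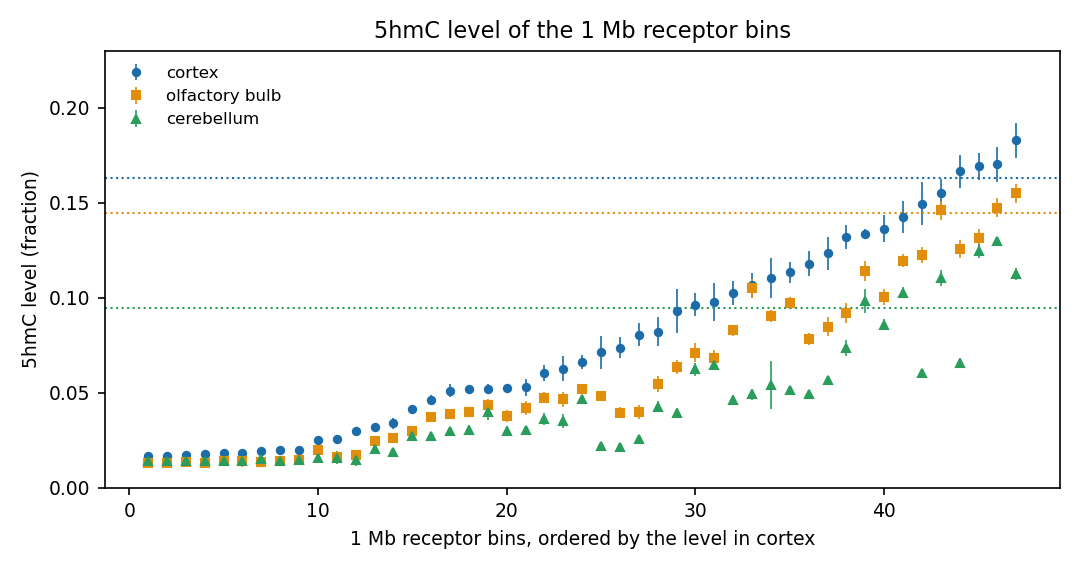
5hmC level (fraction, y axis) of the 47 receptor bins of 1 Mb, ordered by their level in cortex (x axis), with the mean and SD over 3 libraries per tissue and dotted lines for the mean of all bins in each tissue. In the 12 lowest bins all tissues lie between 0.0129 and 0.0298, and cortex reaches 0.183 in the highest.

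The 5hmC level in cortex and the cerebellum minus cortex difference of 5mC, which come from different libraries, were set side by side over the 47 bins. They are not independent, because cortex 5mC enters the difference and shares its cytosines with cortex 5hmC. Part of any relation between them may thus be built in. In the 12 bins with cortex 5hmC under 0.03 (10 on chromosome 7 and 2 on chromosome 17, a split chosen after the values were seen), 5mC was lower in cerebellum in all 12, by -0.0521 to -0.0260. In the other 35 it was lower in 11, with a range from -0.0422 to 0.0780 and a median of 0.0146. Across the 47 bins Pearson's r was 0.928 and Spearman's rho 0.929, as a description, since neighbouring bins share clusters and sequence. Over all 2581 bins r was 0.622 and rho 0.451. The pattern was not restricted to receptor genes, because the 35 other bins of the genome with cortex 5hmC under 0.03, 17 of them on the X chromosome, were also all lower in cerebellum, with a median of -0.0422. Receptor bins made up 5 of the 10 and 14 of the 50 bins with the lowest cortex 5hmC.

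**Figure D5:**
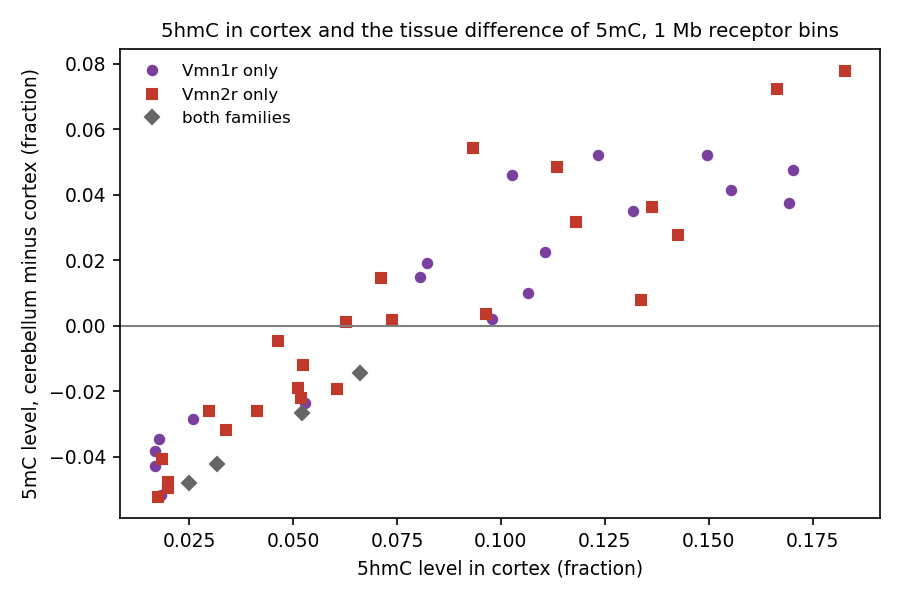
Cerebellum minus cortex difference in 5mC (fraction, y axis, grey line at 0) against the cortex 5hmC level (fraction, x axis) of the 47 receptor bins of 1 Mb, marked by family. The differences run from -0.0521 among the bins lowest in 5hmC to 0.0780 in the bin at 0.183.

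Near-identical promoters, meaning the windows at RefSeq gene starts described above, were most frequent on chromosome 7. Of the 206 Vmn1r promoters 71 had at least 95% identity, without gaps, to another receptor promoter, and 54 an exact copy. On chromosome 7 this held for 67 of 115 Vmn1r promoters (58.3%) and for 20 of 49 Vmn2r promoters (40.8%), on chromosome 17 for 8 of 32 Vmn2r promoters, off chromosome 7 for 4 of 91 Vmn1r promoters (4.40%), and off both chromosomes for 6 of 37 Vmn2r promoters (16.2%). In the 12 bins with cortex 5hmC under 0.03, 77 of 130 promoters had such a copy, against 27 of 184 in the other 35. According to the labels only uniquely mapped reads entered the tables.

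Bins with and without copies were compared on the same chromosomes, a split also chosen after the values were seen. It covered 58 bins with a near-identical promoter, 32 of them lower, and 126 with promoters but no such copy, 46 of them lower. The rest of the 280 tested receptor bins, without a promoter to compare, were left out, although they held part of the 114 lower bins. On chromosomes 7 and 17, 49 bins with a near-identical promoter had a mean cerebellum minus cortex difference of -0.0424, with 32 lower and 1 higher. The 73 bins whose promoters had no such copy had -0.0348, with 46 lower and 2 higher. On other chromosomes 9 bins with a copy had 0.0226 and 53 without one 0.0220, with 0 lower in either group. The lower bins found on those chromosomes were thus all among the bins left out. The median SD between cortex libraries was 0.0165 and 0.0179 in the first pair of groups and 0.0204 and 0.0166 in the second, near the 0.0177 of all bins.

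Other genes of vomeronasal neurons and of their ligands were read from lists. Of 22 bins over 11 signalling genes, 9 were higher and 1 lower in cerebellum than in cortex, beside 71.9% and 4.44% of all bins, with a median change of 0.13 against 0.43 over all bins. Among them Trpc2, the cation channel of vomeronasal transduction, had 0.644, 0.695 and 0.661 in cortex, olfactory bulb and cerebellum. It was higher in olfactory bulb than in cortex by 0.33 (limma adjusted p 0.0165), as were 37.6% of all bins, whose median change was 0.22. Gnai2 had 0.438, 0.505 and 0.529 (0.53 from cortex to cerebellum, limma adjusted p 2.2e-05). Gnao1, a G protein gene that is widely expressed in brain, had 0.456, 0.515 and 0.423 over 2 bins. Of 21 bins over 9 sensory neuron genes and transcription factors, 19 were higher in cerebellum than in cortex and 0 lower (71.9% and 4.44% of all bins), with a median of 0.73 against 0.43. In olfactory bulb against cortex 6 were higher and 8 lower (37.6% and 2.18% of all bins). Meis2, with 0.543, 0.296 and 0.657, had the largest fall to olfactory bulb (-1.54), and Bcl11b (-0.25) and Robo2 (-0.19) fell less. Omp (0.37), Lhx2 (0.56), Emx2 (0.41), Ebf2 (0.19) and Nrp2 (0.28) rose, and Tfap2e hardly changed (0.0011).

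Other receptor and ligand families of the organ were read in the same way. Of the 5 bins with formyl peptide receptor genes (Fpr), some of which are expressed in the vomeronasal organ, 2 were lower and 0 higher in cerebellum than in cortex, where 4.44% of all bins were lower and 71.9% higher, and 4 were lower than in olfactory bulb, where 7.69% of all bins were. The bin with Fpr-rs6 and Fpr-rs7 had 0.709, 0.725 and 0.651 in cortex, olfactory bulb and cerebellum (-0.39 from cortex to cerebellum, limma adjusted p 0.00184), and that with Fpr-rs3 0.740, 0.749 and 0.692 (-0.34, limma adjusted p 0.0054). All 5 bins lie within the span of the receptor cluster at chr17:17700001-21400000 described above, and 2 of them are themselves receptor bins. The Fpr counts thus describe the same region. Of 11 bins with Esp genes, which encode exocrine gland-secreted peptides detected by the organ, 5 were lower and 0 higher in cerebellum than in cortex, and 9 lower than in olfactory bulb (4.44%, 71.9% and 7.69% of all bins), with 0.714, 0.737 and 0.672 for Esp36. Of 18 bins with Mup genes, which encode major urinary proteins, 2 were higher and 0 lower in cerebellum than in cortex, and of 7 bins with H2-Mv genes, nonclassical class I genes expressed in basal vomeronasal neurons, 1 was higher and 0 lower, beside the same 71.9% and 4.44% of all bins.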

How the data were processed

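The authors deposited, for each library, a table of the methylation level per bin as a fraction between 0 and 1, in 100 kb bins for oxBS-seq (5mC) and 1 Mb bins for TAB-seq (5hmC). Per the labels and the study's methods, reads were mapped uniquely to mm10 with Bismark, the level of a site was taken as C/(C + T) with spiked-in controls, and per-site binomial calls used a coverage minimum. How sites were combined into bins is not given in the sources used here. Unconverted 5mC in TAB-seq and unoxidised 5hmC in oxBS-seq would raise the values, and no conversion rate was analysed here. Coverage is unknown, so no counting interval was given. The 2 and 3 libraries per tissue set the precision.

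Gene positions were taken from GENCODE M21 and promoters from RefSeq, both on GRCm38.p6. Members, gene lists and comparisons were chosen with earlier results of these data known. Bins listed at 0 or 1 in any library were left out, which kept 25664 of 26327 and 2581 of 2641 bins. limma 3.58.1 in R 4.3.3 was run on log2(level/(1 - level)) over all bins with 1 fit for the 3 tissues, without covariates, at an adjusted p of 0.05 (Benjamini-Hochberg over all bins). Flanks were the 5 bins on either side of a cluster for receptor bins, and of the bin itself for all others, with at least 4 usable. A bin's value minus the mean of its flank was fitted in the same way over 25659 bins. Named bins were the 3 with the largest rise and fall per pair of tissues among those passing the threshold without overlap of libraries, and the 3 highest and lowest in level. Clusters and 1 Mb bins were named from 10 receptor genes on. Means, identities and figures were made with Python 3.11.15, numpy 2.4.6, pandas 2.3.3, scipy 1.17.1 and matplotlib 3.10.9.

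The fits were tested on simulated data with 200 changed bins for cerebellum against cortex. Of changes of 0.5 in the log2 ratio, 89% were recovered among 25664 bins of 5mC, 100% among 2581 bins of 5hmC and 99.5% in the flank fit, and of changes of 0.2 it was 0%, 54.5% and 5.5%. At 0.5, 8, 9 and 13 unchanged bins were called. Simulated bins had independent noise of the same SD and no shift between libraries, unlike the real bins, so these rates hold for such noise only. Alternatives changed the scale, centring, filter, fit, flank width, gene set, replicate block and libraries. No libraries were identical.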

Additional observations from a re-analysis of the deposited data

Results flagged for a closer look

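The level of receptor bins relative to their flanking 500 kb differed between tissues by the test of place and tissue together (limma, adjusted over 25659 bins). It differed in 148 of 280 receptor bins between cerebellum and cortex, in 146 between cerebellum and olfactory bulb, and in 13 between olfactory bulb and cortex. Of the 148 bins 142 were lower in cerebellum and 6 higher, where 12.7% of all bins were lower and 13.7% higher. Bins without a receptor gene were set against their immediate neighbours, so the shares of all bins are not a fully like measure. Of the 146 bins 137 were lower in cerebellum and 9 higher (12.4% and 13.1% of all bins). Of the 13 bins 7 were lower in olfactory bulb and 6 higher, 2.50% and 2.14% of receptor bins beside 5.14% and 5.03% of all bins. Without cerebellum replicate 2 the share of bins lower in cerebellum against cortex was 33.2% instead of 50.7%. Depth, mapping and cell composition were not tested.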

How the results depend on the processing

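The shares of receptor bins called in the leading direction moved under these settings. For 5mC in olfactory bulb against cortex (16.4% higher), the fraction scale gave 10.7%, centring on the library median 2.14%, keeping all bins with limited levels 4.98%, the replicate block 10.7%, the block by the numbers in the deposited library names 31.1%, bins with 3 or more genes 25.6% and, chosen after seeing the data, bins off chromosomes 7 and 17 25.9%. In cerebellum against cortex (40.7% lower), centring gave 83.6% and bins off chromosomes 7 and 17 11.6%, with more of them higher than lower. Over all bins 4.44% were lower and 71.9% higher without centring. In cerebellum against olfactory bulb (52.5% lower), all bins gave 31.3% and bins off chromosomes 7 and 17 19.6%. Leaving out 1 library gave 4.29% to 19.6%, 15.7% to 51.8% and 21.4% to 58.2%, with the low ends without olfactory bulb replicate 2, cerebellum replicate 2 and cerebellum replicate 2. For 5hmC, olfactory bulb against cortex (95.7% lower) gave 59.6% on the fraction scale and 53.2% centred, cerebellum against cortex (100%) 23.4% centred, and cerebellum against olfactory bulb (72.3%) 12.8% centred. Without 1 library these shares were 93.6% to 95.7%, 100% to 100% and 63.8% to 74.5%. Relative to the flank, olfactory bulb against cortex (2.50% lower) gave 1.07% with a flank of 200 kb, and 0.714% to 2.14% without 1 library. The other flank tests kept to 33.2% to 52.1% and 30.7% to 51.1%, low without cerebellum replicate 2, and to 70.0% to 72.5%, 65.4% to 70.4% and 40.7% to 47.5% above the flank in cortex, olfactory bulb and cerebellum.

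Member means reversed under centring on each library's mean for 5mC in olfactory bulb against cortex (0.0198 to -0.0103) and for 5hmC (olfactory bulb against cortex -0.0178 to 0.000691, cerebellum against cortex -0.0332 to 0.0351, cerebellum against olfactory bulb -0.0154 to 0.0344). Over all bins 5hmC changed by -0.0683 from cortex to cerebellum, while members had only 0.0778 in cortex. A loss of the same proportion is smaller there, so the 5hmC reversals do not show that receptor bins keep 5hmC. Centred, 5mC moved to -0.0703 in cerebellum against cortex and -0.0600 against olfactory bulb. 5hmC moved to -0.0383 and -0.0190 with bins of 1 or more genes, to -0.0250 and -0.00986 with 10 or more, and to -0.0113 for the median in cerebellum against olfactory bulb. Without 1 library the 5mC differences were 0.0113 to 0.0247, -0.0246 to -0.00870 and -0.0431 to -0.0285, and those of 5hmC -0.0195 to -0.0152, -0.0347 to -0.0306 and -0.0166 to -0.0137. The family difference was -0.00697 in cortex and -0.00165 in olfactory bulb by medians, and reversed to 0.00677, 0.00422 and 0.00538 with protein-coding genes and to 0.0117, 0.00458 and 0.00513 with 3 or more genes. Without 1 library it was -0.00245 to -0.000215, -0.00607 to -0.00254 and -0.00519 to -0.00244. Cluster minus flank was 0.0643 with 200 kb, 0.0729 with 1000 kb and 0.0603 by medians in cortex, and 0.0424 and 0.0333 in cerebellum with 200 kb and by medians, with 0.0691 to 0.0715, 0.0641 to 0.0687 and 0.0435 to 0.0452 without 1 library.

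Replicate numbers did not pair the samples, with correlations between same-numbered libraries from -0.0932 to 0.0290 for 5mC and -0.191 to 0.429 for 5hmC. In refits of named bins, 194 calls were kept and 30 lost. The causes were not tested. Groups of 2 or 3 libraries, unknown coverage and bins that average many sites limit what can be detected.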
